A study of Mus musculus with 18 samples.

Results

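Around the 6 genes that encode the main secreted proteins of the primitive endoderm (PrE) basement membrane, Lama1, Lamb1, Lamc1, Col4a1, Col4a2 and Sparc, GATA6 occupied 115 of the 42403 regions in the deposited table of GATA6 binding. A region was taken as a member when its summit, the base with the highest GATA6 signal, lay inside a window reaching about 100 kb beyond each gene on both sides. The choice used position alone. Col4a1 and Col4a2 share 1 window because they are transcribed away from each other from starts that overlap by 22 bp. The Lama1 window held 25 regions, the Lamb1 window 16, the Lamc1 window 40, the Col4a1 and Col4a2 window 23 and the Sparc window 11.

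Basement membranes are thin sheets of extracellular matrix on which epithelia rest. Lama1, Lamb1 and Lamc1 encode the alpha, beta and gamma chains that join into the laminin trimer of the earliest embryonic basement membranes, Col4a1 and Col4a2 encode the chains of the ubiquitous type IV collagen network, and Sparc encodes a secreted matricellular protein that binds collagen. PrE cells and the parietal endoderm that descends from them are known for secreting these proteins in large amounts, in the parietal endoderm as Reichert's membrane. GATA6 and SOX17 are transcription factors of the PrE, and OCT4, SOX2 and ESRRB are pluripotency transcription factors (PTFs).

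The study followed mouse embryonic stem (ES) cells of the KH2 line, of mixed C57BL/6 and 129/Sv origin, in which 1 µg/mL doxycycline (Dox) switches on an HA-tagged Gata6 transgene in selected clones. The series itself holds 18 MNase-seq libraries in 6 groups of 3, untreated cells at d0 and cells given Dox for 8, 16, 24, 48 or 96 h. All groups carry the transgene, and the cells were grown on feeder fibroblasts. The values described here come from the table of GATA6 regions that accompanies those libraries, which gives each region's ChIP-seq, input and ATAC-seq signal over the same times and in XEN cells, a stem cell line derived from mouse embryos and resembling the PrE. MNase values and transcript levels of the 6 genes were not analysed here.

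The signal of a region counts its reads after the authors' correction for library size and is not divided by its width. It was taken as a mean over preparations, because its values are not whole multiples of 1 read, and its scale is not given in the sources used here. There are no replicate values, so no SD and no test between times can be given, and the depth behind each value is unknown. Intervals of shares are 95% Wilson intervals over regions and cover counting error only. Neighbouring regions share libraries and a locus and are not replicates of each other.

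The sequences that follow are those of the region with the highest GATA6 signal at 96 h around each locus, shown because the values below turn on these regions. Each line gives the best GATA6 motif of the region, in capitals, with 15 bases on each side in lower case, on the strand of the motif, from RefSeq's GRCm38 genome. The region 11.6 kb upstream of Lama1 is chr17:67684408-67686583, that 35.6 kb upstream of Lamb1 is chr12:31227881-31230421, that 23.8 kb upstream of Lamc1 is chr1:153354224-153357770, that 3.9 kb into Col4a1 is chr8:11308478-11310403 and that 8.1 kb into Sparc is chr11:55414124-55415614.
Lama1, 11.6 kb upstream: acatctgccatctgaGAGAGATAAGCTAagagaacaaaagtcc
Lamb1, 35.6 kb upstream: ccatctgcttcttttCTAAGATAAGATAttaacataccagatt
Lamc1, 23.8 kb upstream: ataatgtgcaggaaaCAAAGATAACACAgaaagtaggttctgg
Col4a1, 3.9 kb downstream: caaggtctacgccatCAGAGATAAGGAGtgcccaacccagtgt
Sparc, 8.1 kb downstream: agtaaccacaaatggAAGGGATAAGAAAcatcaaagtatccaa

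The best SOX17 motif of the same 5 regions, in capitals, is shown because SOX17 bound all of them. The best motifs were chosen by score and need not be the bound sites. Counted on the plus strand from the summit, in the order shown, the SOX17 motifs started at base -496, -82, -2116, -118 and -603. The GATA6 motifs above started at base -45, -211, -2223, 488 and -426.
Lama1, 11.6 kb upstream: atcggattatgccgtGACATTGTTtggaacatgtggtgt
Lamb1, 35.6 kb upstream: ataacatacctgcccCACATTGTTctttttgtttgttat
Lamc1, 23.8 kb upstream: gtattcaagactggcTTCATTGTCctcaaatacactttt
Col4a1, 3.9 kb downstream: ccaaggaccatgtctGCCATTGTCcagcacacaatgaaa
Sparc, 8.1 kb downstream: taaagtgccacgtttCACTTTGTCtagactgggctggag

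The highest best GATA6 motif score among the members, 15.0 on FIMO's log-odds scale, was shared by a region 15.9 kb into Lama1 and a region 58.1 kb into Lamc1, both in introns, which carried the same 13 bases (capitals) in different surroundings.
Lama1, 15.9 kb downstream: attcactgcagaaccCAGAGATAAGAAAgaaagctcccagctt
Lamc1, 58.1 kb downstream: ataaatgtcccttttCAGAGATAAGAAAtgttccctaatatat
With the same motif score, the regions of this pair differed in signal, which is not divided by width, and in width. The Lama1 region was Late and not bound by SOX17, with a GATA6 signal of 2.89 at 96 h, whereas the Lamc1 region, which held 11 GATA6 motifs in 2003 bp against 3 in 532 bp, was Early&Constant and reached 15.0.

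The regions nearest to the starts of Lama1, Lamb1 and Col4a2 are shown with 75 bases on each side of the summit, on the plus strand, because those at the Lama1 and Lamb1 starts had no best GATA6 or SOX17 motif within the stretch. Capitals mark the best SOX17 motif, which the Col4a2 stretch alone holds.
Lama1, 0.1 kb upstream: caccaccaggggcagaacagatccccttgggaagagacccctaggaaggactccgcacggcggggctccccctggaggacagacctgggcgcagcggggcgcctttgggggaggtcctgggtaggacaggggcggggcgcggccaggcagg
Lamb1, 0.2 kb upstream: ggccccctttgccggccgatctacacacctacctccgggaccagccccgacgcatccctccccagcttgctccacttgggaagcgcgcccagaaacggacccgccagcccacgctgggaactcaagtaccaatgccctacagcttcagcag
Col4a2, 2.8 kb downstream (SOX17 motif): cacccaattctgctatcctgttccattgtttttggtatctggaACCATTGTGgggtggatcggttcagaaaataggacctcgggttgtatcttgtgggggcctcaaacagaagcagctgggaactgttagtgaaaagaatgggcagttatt

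GATA6 regions were dense around all 6 genes. The 5 windows together held 72.6 regions per Mb, against 15.6 per Mb of the assembled chromosomes. Counting each gene with 100 kb on both sides, Lamc1 had 127 regions per Mb, Lama1 76.8, Col4a1 63.6, Col4a2 62.4, Lamb1 60.5 and Sparc 48.1, where the median of 21911 protein-coding genes was 20.3 per Mb. A density at or above that of Lamc1 was found for 0.00913% of protein-coding genes, itself included, and one at or above that of Sparc for 12.4%. The members were also wider than the rest, with a median of 687 bp (227 to 3547 bp) against 525 bp over all regions. Of the 115 summits, 64 lay in introns, 39 between genes, 10 within 1 kb of a transcript start and 2 in exons. Other genes lie in the windows too, among them Nmnat2 beside Lamc1, Rab20 and Cars2 beside the collagen genes, and Fat2, Atox1 and G3bp1 beside Sparc, and which gene a region acts on was not tested.

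**Figure D1:**
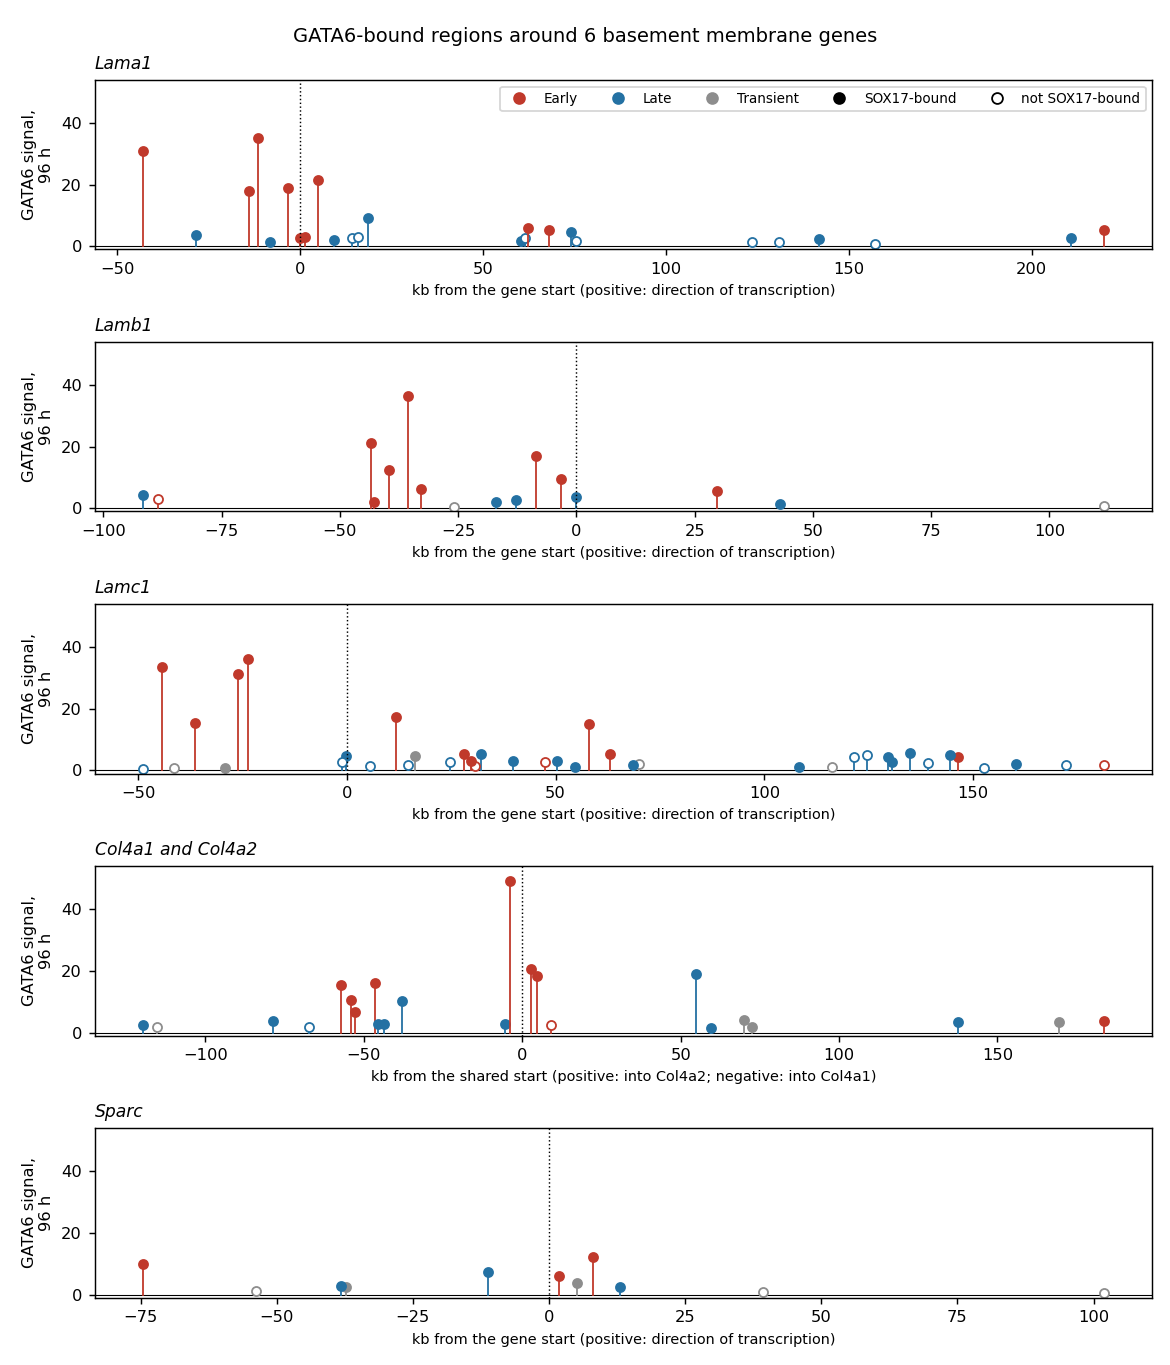
GATA6 signal of each region at 96 h (vertical axis, deposited signal of the region) against the distance of its summit from the gene start in kb, for the 5 windows. Colours give the GATA6 cluster and filled points the SOX17-bound regions. The tallest point, 49.1, lies 3.9 kb into Col4a1, and the tallest points of the 3 laminin genes lie 11.6 to 35.6 kb upstream.

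The authors sorted the regions by their GATA6 time course into Early&Constant (Early below), Late and Transient. Of the members, 44 were Early (38.3%, 29.9 to 47.4; 28.0% of all regions), 55 were Late (47.8%, 38.9 to 56.9; 33.6% of all regions) and 16 were Transient (13.9%, 8.75 to 21.4; 38.4% of all regions). Early regions are wider than Late ones in the whole table, and the members are wide. Among regions at or above the table's median width, 54.5% of 77 members were Early and 33.8% Late, against 42.4% and 20.7% of all such regions, and 11.7% were Transient against 36.9%. The low share of Transient regions was not shared by Sparc. No region of the Lama1 window was Transient (0 of 25, with an upper Wilson bound of 13.3%), against 2 of 16 at Lamb1, 5 of 40 at Lamc1, 4 of 23 at the collagen genes and 5 of 11 at Sparc. Early regions made up 9 of 16 at Lamb1, 10 of 25 at Lama1, 9 of 23 at the collagen genes, 13 of 40 at Lamc1 and 3 of 11 at Sparc, with intervals that overlap between all windows.

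**Figure D2:**
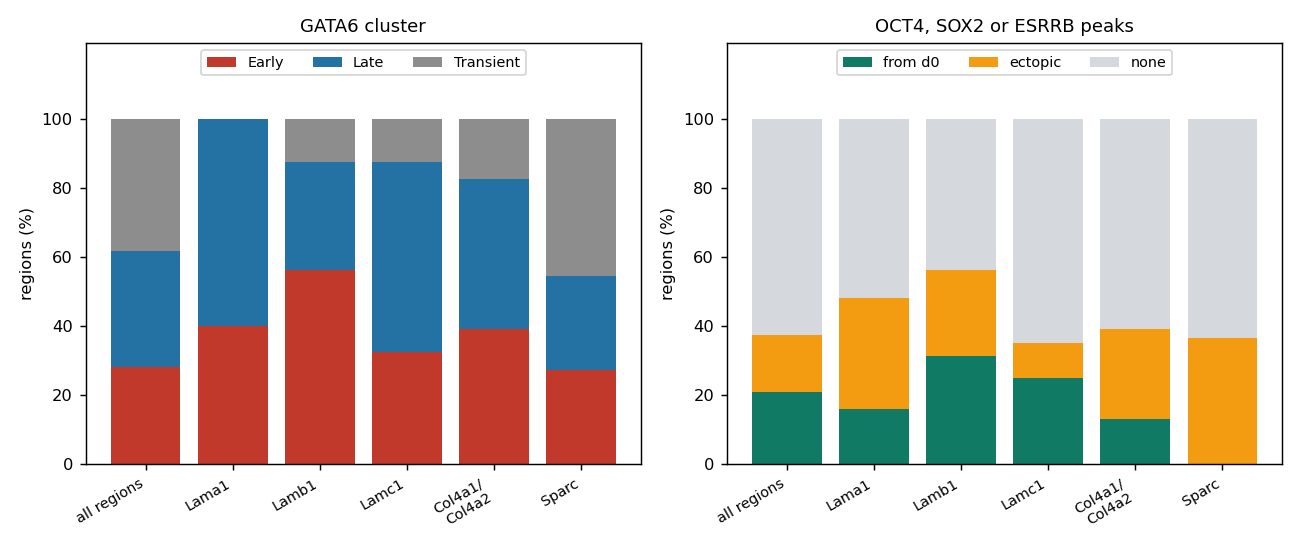
Share of regions (%) in each GATA6 cluster (left) and each PTF class (right), for all 42403 regions and for the 5 windows of 11 to 40 regions. Bars stack to 100%. Lama1 has no Transient region and Sparc no region with PTFs from d0.

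Before Dox most members were closed, but not most of those at Lamc1 and Sparc. Of the members, 76 (66.1%, 57.0 to 74.1) were classed as closed at d0, 35 (30.4%) as moderate and 4 (3.48%) as accessible, against 61.3%, 31.2% and 7.43% of all regions. The share itself was therefore near that of the table, but the loci differed among themselves. At the collagen genes 22 of 23 regions were closed (95.7%, 79.0 to 99.2), at Lamc1 19 of 40 (47.5%, 32.9 to 62.5) and at Sparc 4 of 11. The 4 accessible regions lay at the Lama1 start, at the Lamc1 start, 5.1 kb into Sparc and 38.2 kb upstream of Sparc.

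In the histone states that the authors took from public ES cell data, 33 members were facultative heterochromatin (28.7%; 22.3% of all regions) and 9 constitutive heterochromatin (7.83%; 10.2% of all regions). The collagen genes held 12 of the 33 facultative regions. A further 18 members were naive (15.7%; 18.0% of all regions), 19 primed enhancers (16.5%; 16.9%), 21 poised enhancers (18.3%; 14.6%), 8 active enhancers (6.96%; 11.2%) and 7 promoters (6.09%; 6.88%). None of the 23 collagen regions was a primed or active enhancer or a promoter. Of the 8 active enhancers of ES cells, 5 lay at Lamc1. They made up 12.5% of its 40 regions, near the 11.2% of the table.

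SOX17 peaks were frequent. SOX17 bound 83 members (72.2%, 63.4 to 79.5), against 44.5% of all regions, and in every window the share was 60.0% or higher. Since SOX17 binding differs between GATA6 clusters, the shares are also given within them. They were 39 of 44 Early members (88.6%; 72.6% of all Early regions), 37 of 55 Late members (67.3%; 53.4%) and 7 of 16 Transient members (43.8%; 16.2%). At the collagen genes 20 of 23 regions were bound by SOX17, and at Lamb1 13 of 16.

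PTFs from d0 were rarest in Late regions, as in the whole table. Among the members they were more frequent in Early than in Transient regions, whereas the whole table had the opposite order. The Transient share rests on only 16 members, and the order was not tested. PTFs were present from d0 at 22 members (19.1%, 13 to 27.3; 20.8% of all regions), appeared after Dox, called ectopic, at 26 (22.6%, 15.9 to 31.1; 16.6%) and were not called at 67 (58.3%; 62.6%). Of the 22 with PTFs from d0, 18 were Early (40.9% of Early members; 27.6% of all Early regions), 4 Transient (25%; 32.6%) and 0 Late (1.76% of all Late regions). Ectopic PTFs were called at 15 Early members (34.1%; 36.3%) and at 9 Late members (16.4%; 10.1%). Each of the 18 Early members with PTFs from d0 and of the 15 Early members with ectopic PTFs was bound by SOX17, whereas 6 of the 11 Early members without PTFs were. SOX17 bound 72.6% of all Early regions. Its share there by PTF class is not given here, so whether this contrast is particular to these loci cannot be told. At Sparc no region had PTFs from d0 (0 of 11, upper Wilson bound 25.9%) and 4 were ectopic, and at Lama1 4 had them from d0 and 8 were ectopic.

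The GATA6 signal of most members was highest at the last time. It peaked at 96 h in 82 members (71.3%; 37.8% of all regions), not always after a steady rise, and at 8 h in 14 (12.2%; 32.9%). The signal at 96 h was at least 2 times that at 8 h in 63 members (54.8%), against 34.9% of all regions, and the median ratio was 2.28 (0.180 to 29.8), against 0.984. The clusters were built by k-means on this signal over input, so the medians by cluster are descriptions. Per kb of region, Early members had a median GATA6 signal of 4.01 at 8 h and 7.11 at 96 h, where all Early regions went from 4.07 to 4.41. Late members went from 1.19 to 5.05 and all Late regions from 0.942 to 3.92. Divided by input the differences shrank or turned. Early members went from 5.09 to 5.80 and all Early regions from 5.56 to 4.79, whereas Late members went from 1.65 to 3.82 and all Late regions from 1.33 to 3.98, so that Late members ended below the table on this scale.

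The input rose at the members as well. The median input signal per kb of the members was 0.831 at 8 h and 1.25 at 96 h, against 0.769 and 0.875 over all regions, and relative to the median of all regions it was 1.08 times at both d0 and 8 h and 1.42 times at 96 h. Divided by input, the median GATA6 signal of the members was 2.51 at 8 h, 2.96 at 16 h, 2.69 at 24 h, 3.24 at 48 h and 3.96 at 96 h, against 3.95, 2.92, 3.08, 2.84 and 2.95 over all regions. The members thus began below the median of the table and ended above it on this scale too, with a median 96 h over 8 h ratio of 1.36. The part of the input in the other differences was not tested.

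**Figure D3:**
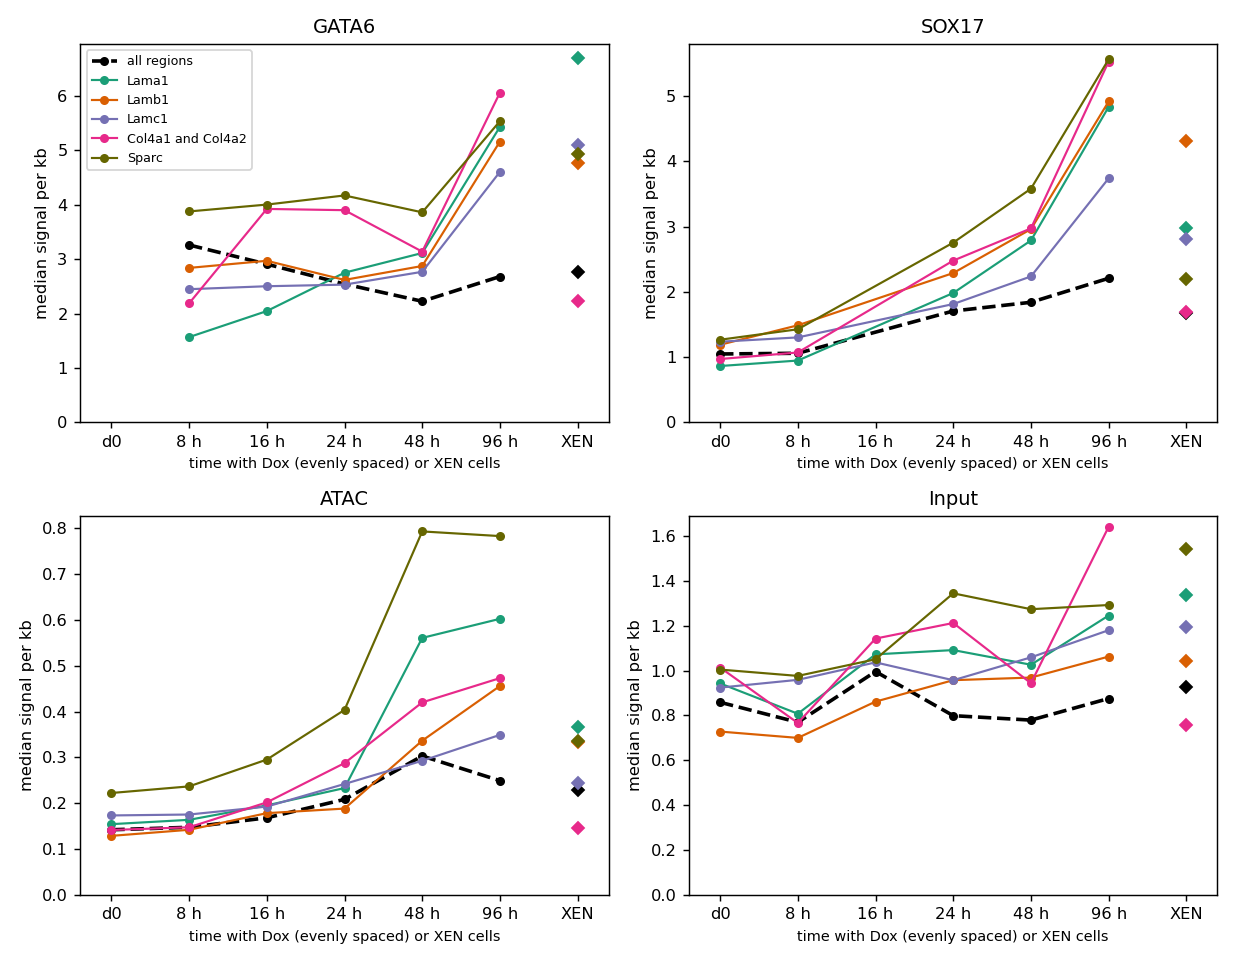
Median signal per kb of GATA6, SOX17, ATAC and input (vertical axes) at d0 and after Dox (evenly spaced) and in XEN cells (diamonds), for all regions (dashed) and the 5 windows. GATA6 at d0 and SOX17 at 16 h are not plotted. All 5 windows lie above the dashed line for GATA6, SOX17, ATAC and input at 96 h, and the Col4a1 and Col4a2 window drops to 2.24 for GATA6 in XEN cells.

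SOX17 signal rose at nearly all members. It was at least 2 times higher at 96 h than at d0 in 102 members (88.7%), against 50.8% of all regions, with a median ratio of 4.45 against 2.05. The ratio to input went from a median of 1.21 at d0 and 1.44 at 8 h to 2.08 at 24 h, 2.72 at 48 h and 3.73 at 96 h, whereas over all regions it went from 1.22 to 2.15 at 24 h and 2.44 at 96 h. At 48 h the table stood at 2.39, with quartiles (1.55 to 3.99) that overlap those of the members (1.89 to 4.2). As signal per kb the median of the members was above that of the table both at d0, at 1.10 against 1.05, and at 24 h, at 2.08 against 1.71. These are bulk measurements, in which fewer cells with a bound region and less binding per cell cannot be told apart. By window the median SOX17 ratio of 96 h over d0 was 6.47 at the collagen genes, 5.46 at Lama1, 3.81 at Lamb1, 3.12 at Lamc1 and 2.90 at Sparc. The order was another one over input, where the median went from 1.55 to 5.29 at Lamb1, from 1.03 to 4.33 at Lama1, from 1.01 to 3.81 at the collagen genes, from 1.11 to 2.92 at Sparc and from 1.30 to 2.86 at Lamc1.

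Accessibility also rose at most members. ATAC signal at 96 h was at least 2 times that at d0 in 69 members (60.0%), against 41.2% of all regions. The median ratio was 3.88 at the collagen genes, 3.10 at Lama1, 2.51 at Lamb1, 1.86 at Sparc and 1.74 at Lamc1, and 1.65 over all regions. Per kb, the median ATAC signal of Lama1 regions was 0.154 at d0, 0.164 at 8 h, 0.195 at 16 h, 0.233 at 24 h, 0.561 at 48 h and 0.603 at 96 h, so most of the gain fell between 24 and 48 h.

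Among the PTFs, the share of members with a gain in deposited signal by 24 h stood above that of the table for SOX2. It was near that of the table for OCT4 and ESRRB. OCT4 signal at 24 h was at least 2 times that at d0 in 23 members (20.0%; 19.0% of all regions), of which 12 lay at the collagen genes. SOX2 did so in 23 members (20.0%; 11.0% of all regions), 9 at Lama1 and 9 at the collagen genes, and ESRRB in 3 (2.61%; 2.03%). Divided by input, the median SOX2 signal of the members went from 1.53 at d0 to 1.83 at 24 h. Over all regions it went from 1.73 to 2.09, so the members stayed below the table on this scale. At the Early members the median SOX2 ratio to input was 2.70 at d0 and 4.21 at 96 h, against 2.28 and 2.75 over all Early regions, and 1.80 in XEN cells.

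At Lama1, the alpha chain gene, the 2 strongest regions at 96 h were upstream. The region 11.6 kb upstream was closed at d0, in the naive state and classed as ectopic. Its GATA6 signal was 3.16, 7.0, 15.7, 20.2 and 35.0 at 8, 16, 24, 48 and 96 h and 41.3 in XEN cells. Its OCT4 signal was 2.12 at d0, 1.55 at 8 h, 2.30 at 16 h, 9.06 at 24 h, 13.6 at 48 h and 13.8 at 96 h, and its SOX17 signal 1.65 at d0, 13.9 at 24 h and 36.8 at 96 h. GATA6 was thus higher at 16 h than at 8 h while OCT4 was near its d0 level until 16 h, and SOX17 at 16 h was not used here. The region 43.0 kb upstream, which had PTFs from d0, behaved otherwise, with a GATA6 signal of 21.8 at 8 h, 30.9 at 96 h and 49.9 in XEN cells. The region at the Lama1 start, 0.1 kb upstream, was an accessible promoter with no GATA6 motif, and its GATA6 signal was 1.2 at 8 h and 2.74 at 96 h.

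At Lamb1, the beta chain gene, 1 region dominated from the first time point. The region 35.6 kb upstream held 50.3% of the GATA6 signal summed over the window's 16 regions at 8 h and 28.3% at 96 h. Its GATA6 signal was 62.2, 56.6, 35.2, 43.2 and 36.5 at 8, 16, 24, 48 and 96 h and 43.3 in XEN cells, and that at 8 h ranked 4 of the 42403 regions by signal and 40 per kb. It was closed at d0 by ATAC class yet had an OCT4 signal of 28.3 before Dox, which was 38.8 at 8 h, 49.1 at 24 h, 57.6 at 48 h and 32.6 at 96 h. OCT4 here at 24 h ranked 2 of all regions by signal. Per kb, the highest OCT4 signal at 24 h was 19.3 in this window and 56.7 in the table. The Late region at the Lamb1 start, 0.2 kb upstream, had a GATA6 signal of 1.21 at 8 h and 3.64 at 96 h. The highest motif score of the window, 14.1, belonged to a Transient region 111.6 kb downstream of the start, whose GATA6 signal was 3.15 at 8 h and 0.744 at 96 h.

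At Lamc1, the gamma chain gene, a group of Early regions lay 23.8 to 44.3 kb upstream. The region 44.3 kb upstream was an active enhancer of ES cells with PTFs from d0. Its GATA6 signal was 54.9 at 8 h, which ranked 6 of all regions by signal, and 39.8, 35.3, 37.7 and 33.6 at 16, 24, 48 and 96 h. The region 23.8 kb upstream, 3547 bp wide with 11 GATA6 motifs, went from 19.1 at 8 h to 18.4, 24.4, 27.5 and 36.0, and its best motif started at base -2223 from the summit, counted on the plus strand. The region 26.0 kb upstream had the highest SOX17 signal of the window, 4.84 at d0, 23.1 at 24 h, 35.8 at 48 h and 47.3 at 96 h. Its GATA6 signal was 24.6 at 8 h, 19.0 at 16 h and 31.2 at 96 h. Over the Dox times GATA6 was thus highest at 8 h in the first of these 3 regions and at 96 h in the other two. The accessible region at the Lamc1 start, 0.2 kb upstream, had an ATAC signal of 1.28 at d0 and 2.47 at 96 h, with a GATA6 signal of 1.36 and 4.69 at 8 and 96 h.

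At the type IV collagen genes, an intronic region 3.9 kb into Col4a1 stood out from the whole table by deposited signal. Its SOX17 signal was 4.99 at d0, 4.12 at 8 h, 33.2 at 24 h, 53.0 at 48 h and 114 at 96 h. The values at 48 h and 96 h were the highest of all 42403 regions, and that at 96 h also per kb. Its GATA6 signal was 16.8, 24.4, 20.3, 24.7 and 49.1 at 8, 16, 24, 48 and 96 h, which ranked 3 by signal at 96 h. Its ATAC signal went from 0.691 at d0 to 4.45 at 48 h and 3.31 at 96 h. The input of this region moved as well, from 1.99 at d0 to 6.53 at 96 h. As ratios to input, SOX17 was 2.51 at d0 and 17.5 at 96 h, and GATA6 was 13.6 at 8 h and 7.53 at 96 h. On that scale GATA6 was thus lower at 96 h than at 8 h, while SOX17 was higher at 96 h than at d0. These spans differ, and the gain of SOX17 over input after 48 h is not given here for this region. The highest SOX17 ratio to input in this window at 48 h was 16.1. The highest SOX17 ratio to input at 96 h was 20.1 in this window and 45.6 in the table, so this region led neither.

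On the other side of the shared start, the region 2.8 kb into Col4a2 was closed facultative heterochromatin at d0 and classed as ectopic. Its GATA6 signal was 2.50, 3.36, 5.50, 7.86 and 20.8, and its SOX17 signal 1.72 at d0, 12 at 24 h, 21.3 at 48 h and 47.6 at 96 h, ranking 13 by signal and 3 per kb. As a ratio to input GATA6 was 2.55 at 8 h and 8.74 at 96 h there. Its best GATA6 motif scored 8.31 and its best SOX17 motif, which started at base -32 from the summit, 11.2. A Late region 54.8 kb into Col4a2 rose from 1.12 at 8 h to 4.78 at 48 h and 19.1 at 96 h, and stayed at 20.5 in XEN cells. No summit lay within 1 kb of the shared start, and the region with the highest motif score, 13.8, lay 169.4 kb downstream of the Col4a2 start and was Transient.

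At Sparc, the strongest region at 96 h was lower than those of the other loci, while the median GATA6 signal per kb of the window was 3.87 at 8 h, the highest of the 5 windows, and 5.53 at 96 h. Divided by input, the 8 h median was 2.88 at Sparc and 3.29 at Lamb1, the highest on that scale. The strongest region at 96 h, 8.1 kb into the gene in an intron, had a GATA6 signal of 4.47, 7.39, 7.42, 7.22 and 12.2 and a SOX17 signal of 1.66 at d0 and 9.81 at 96 h. The region 1.8 kb into the gene, with its best GATA6 motif 17 bp from the summit, was flat, at 6.14, 7.48, 5.76, 5.24 and 6.07. The highest signal at 8 h, 16.0, was 74.6 kb upstream in an intron of G3bp1, and was 18.3 at 16 h and 9.95 at 96 h. That region also held the window's highest motif score, 14.2. The closed Late region 11.1 kb upstream had the highest ratio of 96 h over 8 h of all 115 members, going from 0.246 at 8 h to 1.16, 2.94, 3.52 and 7.32, and was 2.15 in XEN cells.

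**Figure D4:**
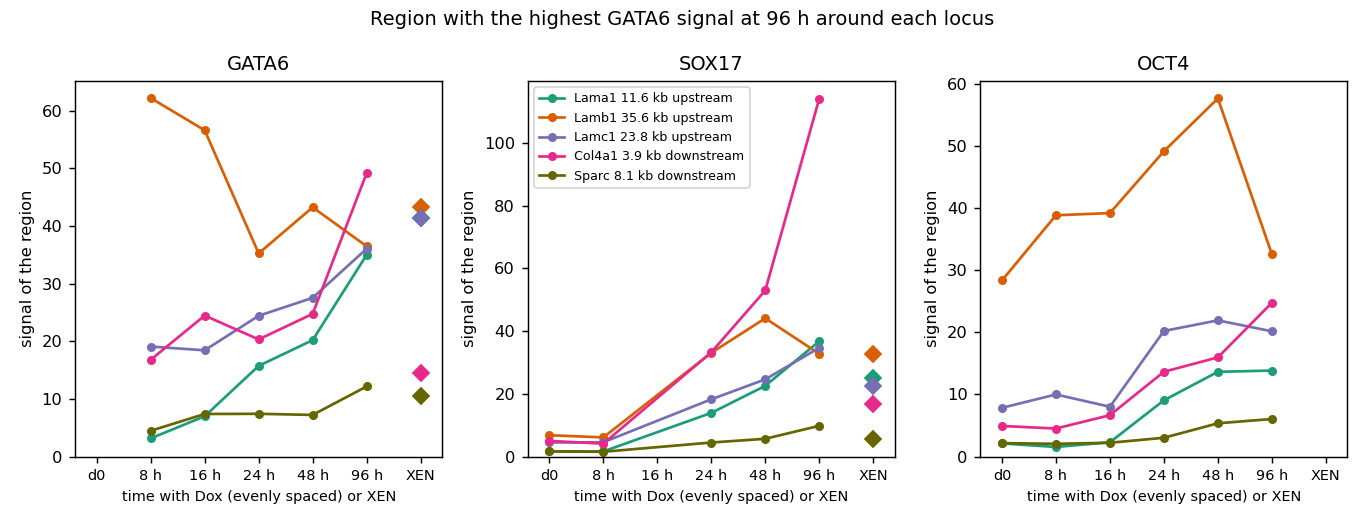
GATA6, SOX17 and OCT4 signal (vertical axes) at d0 and after Dox (evenly spaced) and, where given, in XEN cells (diamonds) at the region with the highest GATA6 signal at 96 h around each locus. The Lamb1 region falls from 62.2 to 36.5 for GATA6, and the Col4a1 region reaches 114 for SOX17.

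XEN cells gave the loci different levels. The GATA6 signal in XEN cells over that at 96 h had a median of 1.22 at Lamb1, 1.14 at Lama1, 1.05 at Lamc1, 0.869 at Sparc and 0.362 at the collagen genes, against 0.971 over all regions, and 20 of the 23 collagen regions were below 1. Divided by input in both states the collagen median was 1.05 and the lowest was that of Sparc, 0.667, with 1.03 to 1.18 at the laminin genes and 0.931 over all regions. The input itself differed there. In 14 adjacent regions, from 78.6 kb into Col4a1 to 8.9 kb into Col4a2 over 87.5 kb, the input signal in XEN cells was 0.145 to 0.770 times that at d0, with a median of 0.494, whereas in the other 9 regions of the window it was 1.02 to 2.64 times. A ratio under 0.8 was found for 26.5% of all regions, and 2 of the 7241 runs of such adjacent regions in the table held 14 or more. In the 14 regions the XEN over 96 h ratio was 0.102 to 0.446 for GATA6, 0.0446 to 0.347 for SOX17 and 0.0761 to 0.309 for ATAC. Divided by input in both states, the GATA6 ratio of these 14 regions was 0.235 to 2.87, with a median of 1.35. The run was picked out after its values were seen, it includes the strong regions beside the shared start, and its cause was not tested.

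**Figure D5:**
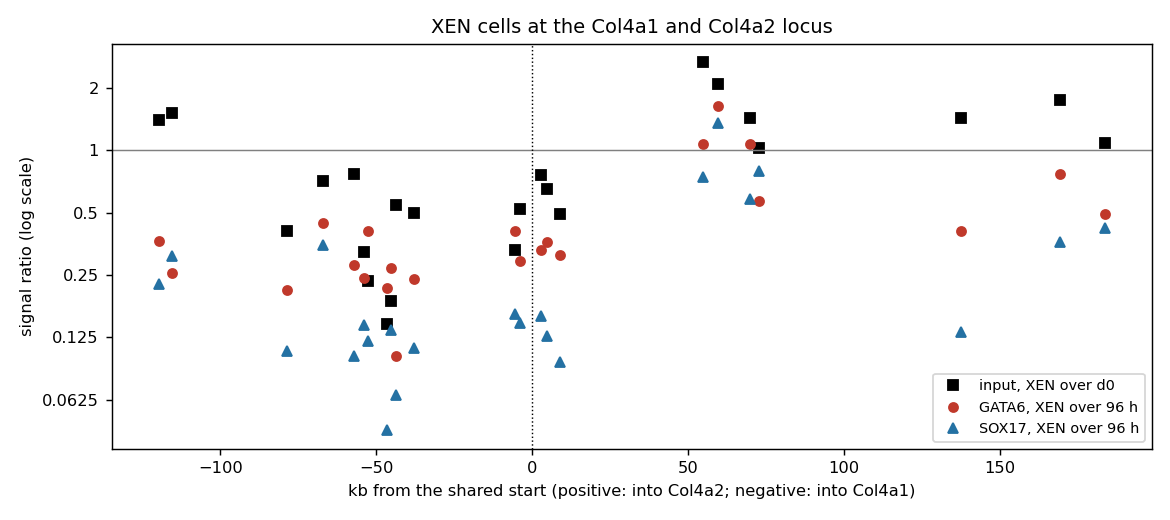
Ratio of signal in XEN cells to d0 (input) or to 96 h (GATA6, SOX17), on a log scale, for the 23 regions against the distance of the summit from the shared start of Col4a1 and Col4a2 in kb. The input ratio is below 1 in 14 adjacent regions and above 1 in the 9 others.

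At the collagen genes input was also high at 96 h, 1.88 times the median of all regions per kb, against 1.18 times at d0 and 1.21 times at 48 h. The median over all regions of chromosome 8 was 1.31 times at 96 h, the highest of the autosomes, and 0.970 times at 48 h. The part of this in the rise of the deposited GATA6 and SOX17 signals at Col4a1 and Col4a2 was not tested, beyond the ratios to input given above.

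After knockdown of Oct4 by siRNA, with 48 h of Dox, the authors' classes put 5 members as lowered in GATA6 binding (4.35%, 1.87 to 9.78; 6.25% of all regions) and 11 as raised (9.57%; 8.57%). Both shares are near those of the table. The lowered regions were 3 at the collagen genes, 1 at Lamb1 and 1 at Lamc1. The Lamb1 region was that 35.6 kb upstream. Its GATA6 signal was 87.7 with control siRNA, the highest of all 42403 regions by signal, and 58.9 with Oct4 siRNA, while SOX17 was 37.2 and 44.9. The region 46.5 kb into Col4a1, which also had PTFs from d0, had 25.9 and 17.2. By contrast the region 54.8 kb into Col4a2 was raised, from 8.34 to 14.8. Over the members the median ratio of Oct4 to control siRNA was 1.11 for GATA6 and 1.78 for SOX17, against 0.997 and 1.56 over all regions.

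A GATA6 motif was present in 106 members (92.2%, 85.8 to 95.8; 89.7% of all regions) and a SOX17 motif in 81 (70.4%; 69.2% of all regions). The median best GATA6 score was 9.58 in the members and 10.2 over all regions, and it was highest at Lamb1 (11.8) and lowest at Lamc1 (9.11). GATA6 motifs numbered 3.35 per kb in the members and 4.04 per kb over all regions. The letters AGATAA, on either strand, stood within 100 bp of the summit in 55 members (47.8%) and in 54.3% of all regions, and ACAATG in 22 (19.1%) and 23.0%. The members were thus not richer in these letters than the table.

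Across the 115 members, GATA6 signal per kb at 8 h and OCT4 signal per kb at d0 had a Spearman correlation of 0.76, against 0.79 over all regions. For GATA6 and SOX17 at 96 h it was 0.80 against 0.90. GATA6 per kb at 8 h and at 96 h were hardly related among the members (0.12) and inversely over all regions (-0.30). These are descriptions over regions that share libraries, base composition and, in part, a locus.

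Among 19 other genes of basement membranes and their assembly, 17 had a GATA6 region within 100 kb. The median was 8 regions, against 5 for protein-coding genes. They gave 149 gene and region pairs (40 Early, 47 Late, 62 Transient and 79 with SOX17), and some regions are counted for more than 1 gene. Of all regions in the table, 28.0% were Early, 33.6% Late, 38.4% Transient and 44.5% bound by SOX17. Hspg2, which encodes the proteoglycan perlecan, had 20, with the highest GATA6 signal at 96 h 37.3. Nid2, a nidogen that links laminin to collagen IV, had 14, and Nid1 had 6. Serpinh1, the collagen chaperone HSP47, had 9, the strongest at 44.5. Of 13 around Col18a1, 12 were Transient. None lay near Col4a5 and Col4a6.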

How the data were processed

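Per the labels and methods, the authors aligned reads with Bowtie2 to mm10, merged the replicates for calling GATA6 peaks with MACS2, kept peaks also found in each replicate, and deposited 1 table of 42403 regions with 105 columns. The deposited signal of a region is its reads corrected by the authors for library size. The deposited motif score is FIMO's log-odds score of the best match in the region. The deposited classes (GATA6 cluster, SOX17, PTF, accessibility, histone state, response to Oct4 siRNA) are the authors' own. No column holds an MNase library, and no counts were given, so depth is unknown. Another 4 columns, whose values are nearly all whole multiples of the lowest one as in 1 library, were not used.

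Members and gene lists were chosen with earlier results of these data known. For each window the text names the region nearest to each gene start, that with the highest GATA6 signal at 96 h and that with the highest best GATA6 motif score, and others, chosen after their values were seen, where a pattern needs them. Summits were annotated with GENCODE release M21, with promoters within 1 kb. The build was checked on 37547 full-length best GATA6 motifs, of which 81.5% had GATA at base 5. Shares carry Wilson intervals and medians binomial order intervals. Assignment and summaries were tested on simulated data. Python 3.11.15, pandas 2.3.3, scipy 1.17.1 and samtools 1.23.1 were used. A gene of the fixed list and a sequence are not reported here.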

Additional observations from a re-analysis of the deposited data

How the results depend on the processing

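Of 105 alternatives to the 14 summary values, 12 moved a value by more than its 95% interval and 93 did not (for the number of regions, by more than 1.5 times). With the wider regions alone, at or above the median width, 54.5% of the members were Early and 33.8% Late. Within 20 kb of the genes 12.7% had PTFs from d0. Closed and moderate regions together made 96.5%. A best GATA6 motif started within 100 bp of the summit in 45.2%, and the median of the mean motif score was 8.51. The median GATA6 ratio of 96 h over 8 h was 1.67 with a pseudocount of 1, and 1.36 over input, an alternative chosen after seeing the data. The ATAC ratio of 96 h over d0 was 1.15 with the pseudocount and 1.53 relative to all regions. Leaving out each locus in turn gave 35.4 to 41.3% Early, 44.0 to 50.5% Late, 10.6 to 17.8% Transient, 68.5 to 78.7% SOX17, 16.0 to 21.2% PTFs from d0, 20.0 to 29.3% ectopic, 58.7 to 76.0% closed, 29.3 to 45.3% heterochromatin, 2.17 to 5.56% lowered by Oct4 knockdown and 90.9 to 93.3% with a motif, with a median score of 9.51 to 9.80, a GATA6 ratio of 1.98 to 2.55 and an ATAC ratio of 2.09 to 3.01. The highest closed share and ATAC ratio came without Lamc1. The causes were not tested. No paired analysis was possible because the columns carry no replicate. Unknown depth limits what a difference between single regions can show.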
